A study of Mus musculus with 8 samples.

Results

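Left ventricles of mice shortly after birth were compared with left ventricles from the end of pregnancy. The comparison used 4 of the 8 arrays of the series: the 2 arrays of post-partum day 1.5 and the 2 arrays of pregnancy day 19, over all annotated genes. The arrays were assigned by their sample titles and stage labels. The comparison itself and the gene lists were chosen with earlier results of these data known. All animals were C57BL/6 females, purchased age-matched at 3 to 4 months, with no treatment or engineered allele. The protocol gives the late pregnancy group as 18 or 19 days. The other groups were non-pregnant mice in diestrus and mice at day 12 of pregnancy, with 2 arrays each. They entered the model for the spread and are given here as reference levels. Each left ventricle was divided into 3 pieces, and the RNA came from 1 of them. The labels do not say which animal gave which array, so a p-value here reflects only how far these samples spread, and that spread may be technical. In a tissue piece, fewer cells of a type and less RNA per cell cannot be told apart.

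Late pregnancy loads the heart with a larger blood volume and a larger output, and the ventricle grows in a way that is largely reversible. Around birth the placenta and its hormones are lost, prolactin rises, blood volume falls and food intake climbs for lactation. Rodent ventricles change their myosin isoforms with load and thyroid state, draw most energy from fatty acids, and remodel a matrix made mainly by fibroblasts.

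Values are log2 intensities after robust multi-array averaging (RMA), and a difference is always post-partum minus day 19 in log2 units, so 1 unit is a 2-fold ratio. Each difference is given with its standard error from limma, a linear model fitted to all 8 arrays. That error pools the spread of the 4 groups. The day 19 arrays varied most, so it may be too small for differences from day 19, and the unadjusted p with it. Where values of the 4 arrays are listed, day 19 replicates 1 and 2 come first, and post-partum replicates 2 and 4 follow. Of 22180 genes measured, 13872 were bright enough to be tested.

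No gene passed an adjusted p of 0.05 in either direction (limma, 0% of genes tested higher and 0% lower). The smallest adjusted p was 0.0667, for Scd4, and the next was 0.589. At an unadjusted p under 0.05, 651 genes were higher post-partum, or 4.69% of those tested, and 494 were lower, or 3.56%. A looser count takes genes whose 2 post-partum arrays both lay above, or both below, the 2 day 19 arrays: 2633 genes were higher in that sense, or 19%, and 1983 were lower, or 14.3%. These shares are the background against which the gene groups below are read. At any size, 52.3% of genes were higher, 47.7% were lower and the median difference was 0.01. The 2 day 19 arrays differed from each other more than the 2 arrays of any other group: 652 tested genes differed by over 1 log2 unit between them, against 145 between the post-partum arrays, 68 at day 12 and 90 in diestrus. Leaving out day 19 replicate 1 gave 310 higher and 562 lower genes at an adjusted p under 0.05 in limma, and leaving out day 19 replicate 2 gave 0 and 2, the lower ones being Bmp10 and Cxcl13. In both settings the single remaining day 19 array was assumed to vary as the other groups did.

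Marker genes showed where the day 19 arrays stood apart. The 13 ventricular cardiomyocyte markers were bright on all 8 arrays, with a mean log2 level of 11.10 to 11.41. Day 19 replicate 1 had the highest mean levels of the atrial cardiomyocyte list (9.13, against 7.12 on replicate 2 and 7.08 to 7.19 post-partum), the mesothelium list (6.40, against 5.45 and 5.29 to 5.38) and the platelet list (8.58, against 6.32 and 6.44 to 6.63). The atrial list was also raised on day 12 replicate 3 (8.09, against 7.12 on replicate 2) and on diestrus replicate 3 (7.79, against 7.21 on replicate 2). Day 19 replicate 2 had the highest mean levels of the macrophage list (8.86, against 7.65 on replicate 1 and 7.56 to 7.90 post-partum), the class II antigen presentation list (8.33, against 6.34 and 6.02 to 6.22), the T and NK cell list (6.12, against 4.69 and 4.70 to 4.87) and the interferon response list (8.95, against 6.79 and 6.70 to 6.98). The list medians below that touch these genes are given with and without the array concerned.

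**Figure D1:**
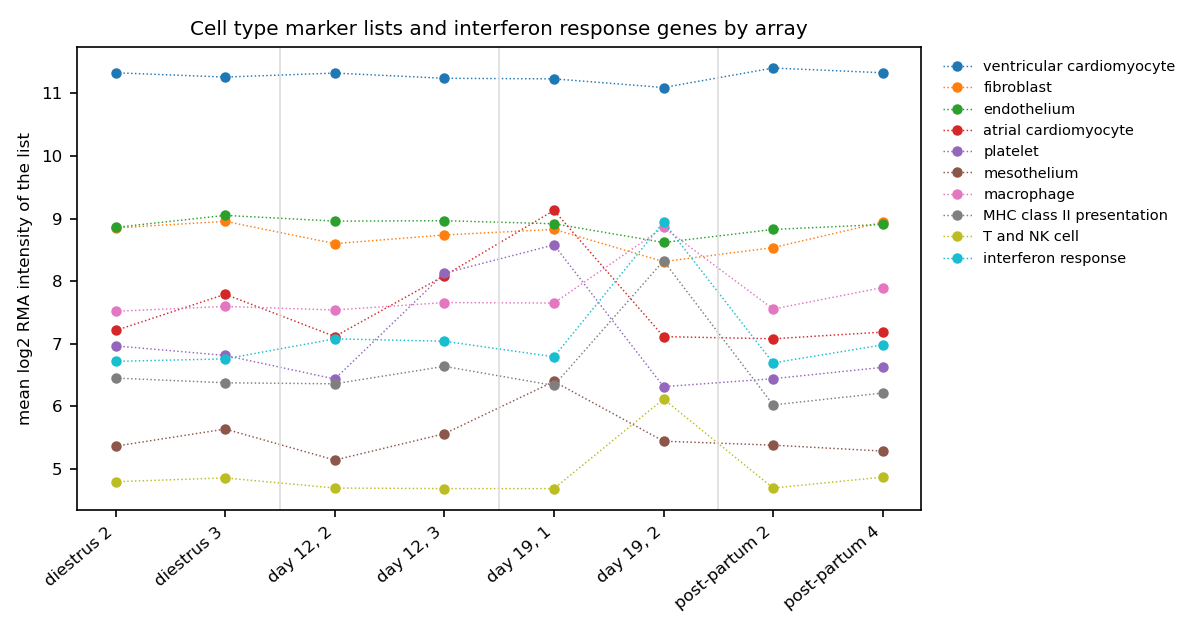
Mean log2 RMA intensity of the measured members of 10 gene lists (vertical axis) on each of the 8 arrays (horizontal axis); dotted lines join the points of a list. Atrial, platelet and mesothelium lists peaked on day 19 replicate 1, and immune and interferon lists peaked on day 19 replicate 2. Platelet and atrial lists were also high on day 12 replicate 3 (8.13 and 8.09), and the atrial list was raised on diestrus replicate 3 (7.79).

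The 30 genes with the largest differences, 15 in each direction, were taken from genes with unadjusted p under 0.01 whose groups did not overlap. Matrix and cell division genes stood among the higher ones: the collagen Col8a1, the glycoprotein Tnc, the collagen Col15a1, and the mitotic kinases Cdk1 and Pbk. The list also held the small RNA genes Rny1 and Rny3 (Ro-associated Y RNAs), the histone genes H1f5 and H2bc18, and Nrn1, Slc9a2, Tmem14c, Sh3bgr, Aoc3 and Pknox2. The lower ones were led by the chemokine Cxcl13, the beta myosin heavy chain Myh7 and the complement gene C4b. They also held the desaturase Scd4, the stress transcription factor Atf3, the TWEAK receptor Tnfrsf12a, the acute phase gene Serpina3n and the lipocalin Apod. Plek, Cd226, Stx11 and Selp, which platelets, leukocytes or endothelium use in adhesion and secretion, Pla2g7, Serpinb9 and Tmem176a completed that list. Among the 15 higher genes the differences ran from 0.90 (Pbk) to 2.02 (Rny1), and among the 15 lower from -1.12 (Tmem176a) to -3.53 (Cxcl13). All but Scd4 had an adjusted p of 0.589 in limma. H1f5 and Pbk passed the brightness filter only through their post-partum level, and Cd226 only through its day 19 level. Histone, Y RNA and desaturase genes have close relatives in the genome, and whether their probe sets separate those copies was not tested.

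**Figure D2:**
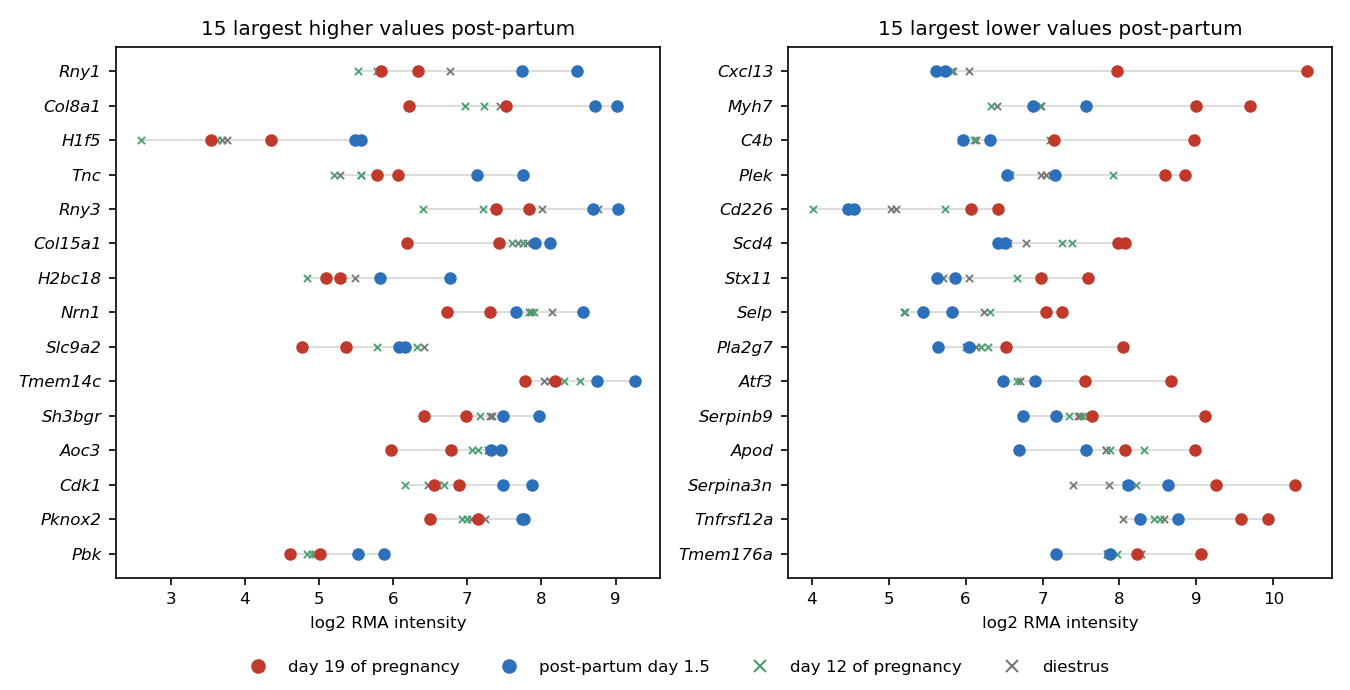
Log2 RMA intensity (horizontal axis) of the 15 genes with the largest higher and the 15 with the largest lower values post-partum; red circles are the 2 day 19 arrays, blue circles the 2 post-partum arrays, green and grey crosses the day 12 and diestrus arrays. Red and blue circles do not overlap for any of the 30 genes, which the selection required; for Myh7, Scd4 and Tnfrsf12a the day 19 values also lie above all 4 crosses, and for Tnc, Col8a1 and Cdk1 the post-partum values do.

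Among contractile genes the beta myosin heavy chain was lower after birth. Myh7, the slow beta myosin heavy chain that rodent ventricles express in fetal life and under load, was at log2 levels of 8.99 and 9.69 at day 19 and 7.56 and 6.88 post-partum. Diestrus and day 12 arrays lay between 6.32 and 6.98. The day 19 arrays were therefore higher than all the others, and the lower post-partum array was within the range of the non-pregnant and day 12 arrays. The difference was -2.12 ± 0.35, a 4.36-fold lower level (limma, unadjusted p = 0.000367, adjusted p = 0.589). Myh6, the fast alpha myosin heavy chain that predominates in the adult mouse ventricle, differed by 0.14 ± 0.13 only, at levels of 12.48 and 12.34 at day 19 and 12.60 and 12.50 post-partum.

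Other markers of hypertrophy and load differed by less. Of the 19 members tested of 19 measured in that list, 14 were lower post-partum and 5 higher; 4 of the lower ones had groups that did not overlap (21.1%, against 14.3% of all genes). The list's median difference was -0.33, and it was 0.000506 without day 19 replicate 1. Of the natriuretic peptides, which stretched myocytes secrete, Nppb was at 11.74 and 11.81 at day 19 and at 11.60 and 11.29 post-partum, a difference of -0.33 ± 0.28. Nppa was at 12.66 and 11.77 against 11.21 and 12.02, with overlapping groups and a difference of -0.60 ± 0.40. It is also an atrial marker, its highest value was on the array with high atrial markers, and the Nppa difference was -0.15 without that array and -1.05 without day 19 replicate 2. Ankyrin repeat factor Ankrd1, a titin-associated stretch sensor, was at 12.27 and 12.70 against 12.03 and 11.91, a difference of -0.51 ± 0.25. The growth regulator Myc was at 6.89 and 7.18 against 6.38 and 6.60, a difference of -0.54 ± 0.16. Skeletal alpha actin, Acta1, another fetal sarcomere gene, went the other way without separating the groups: 10.21 and 8.78 at day 19, then 10.40 and 9.88.

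The sarcomere list as a whole leaned upward, with 20 of 26 tested members higher and a median difference of 0.11. Groups did not overlap for 10 higher members (38.5%, against 19% of all genes) and for 3 lower ones. The Z-disc genes Ldb3 and Tcap differed by 0.50 ± 0.18 and 0.74 ± 0.30. Myom2, an M-band protein, shared the direction of Myh7: its levels were 11.05 and 11.06 at day 19 and 10.61 and 10.28 post-partum. Without day 19 replicate 2 the list's median was 0.01.

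Several genes of fatty acid use were lower after birth. Pdk4, a kinase that inhibits pyruvate dehydrogenase, was at 11.30 and 11.33 at day 19 and at 10.23 and 10.80 post-partum. Its diestrus levels were 10.65 and 10.44, so the post-partum arrays spanned the non-pregnant level and both pregnant groups, with 11.51 and 11.38 at day 12, were higher. The difference was -0.80 ± 0.20. Angptl4, an inhibitor of lipoprotein lipase induced by fatty acids, followed the same course: 6.49 and 6.20 at day 19, 5.54 and 5.56 post-partum, 5.23 and 5.21 in diestrus, a difference of -0.80 ± 0.18. The acyl-CoA thioesterases Acot1 and Acot2, targets of the fatty acid receptor PPAR-alpha, differed by -0.70 ± 0.17 and -1.07 ± 0.36. For Acot2 the lone value 9.22 of post-partum replicate 2 stood below 10.56 on replicate 4, while day 19 was at 11.01 and 10.90. The fatty acid transporter Slc27a1 was at 9.22 and 9.43 against 8.12 and 8.75, a difference of -0.89 ± 0.21. Pnpla2, the lipase that frees fatty acids from stored fat, was at 10.65 and 10.77 against 10.39 and 10.14, a difference of -0.44 ± 0.14.

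Of 39 tested members of the fatty acid list, of 40 measured, 27 were lower and 12 higher. Of the lower ones, 7 had an unadjusted p under 0.05 in limma (17.9%, against 3.56% of all genes) and 11 had groups that did not overlap (28.2%, against 14.3%). By role, 6 of 9 PPAR-induced regulators were lower with a median of -0.31, and 11 of 15 beta-oxidation genes with a median of -0.12; the difference between these roles was not tested. The PPAR target Ucp3, a mitochondrial carrier, was higher by 0.24 ± 0.18. The median of the whole list was -0.12; it was -0.0030 without day 19 replicate 1 and -0.23 without day 19 replicate 2.

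Scd4 had the smallest p of all genes. It belongs to the stearoyl-CoA desaturases, which put the double bond into newly made or imported saturated fatty acids, and it is the isoform known from the mouse heart. Its levels were 8.07 and 7.99 at day 19, and 6.42 and 6.51 post-partum, so arrays within a group agreed closely and the groups were far apart. Levels of 6.78 and 6.55 in diestrus and 7.26 and 7.39 at day 12 placed day 19 at the top of a series and the post-partum arrays at its bottom. The difference was -1.56 ± 0.14, a 2.96-fold lower level (limma, unadjusted p = 4.81e-06, adjusted p = 0.0667). It passed the adjusted threshold under 3 other settings of the fit and without day 19 replicate 1, as given in the closing section, and its adjusted p was 0.962 without post-partum replicate 2. The rest of the lipid synthesis list did not share this: 11 of 16 tested members were higher, the median was 0.12 (0.021 without day 19 replicate 2), and the related Scd1 was at 8.53 and 6.63 against 8.09 and 8.20. Fads1 and Acly, a desaturase of long-chain fatty acids and the enzyme that makes cytosolic acetyl-CoA, were higher by 0.25 ± 0.12 and 0.24 ± 0.12.

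Many extracellular matrix genes were at higher levels post-partum. Col8a1, a short-chain collagen of remodelling vessels and myocardium, was at 7.52 and 6.22 at day 19 and at 9.02 and 8.73 post-partum; diestrus and day 12 arrays lay between 6.96 and 7.53. Its difference was 2.00 ± 0.37, a 4.01-fold higher level (limma, unadjusted p = 0.000707, adjusted p = 0.589). Tnc, tenascin C, an anti-adhesive glycoprotein that adult myocardium makes mainly when it remodels, was at 5.78 and 6.06, then 7.13 and 7.75. On the other 4 arrays it stayed between 5.21 and 5.57, so the post-partum level was above every other array. The difference was 1.52 ± 0.24 (limma, unadjusted p = 0.000268, adjusted p = 0.589). Postn, periostin, a matricellular product of activated fibroblasts, was at 9.54 and 7.84 at day 19 and at 10.32 and 10.38 post-partum, a difference of 1.66 ± 0.56. Its 2 day 19 arrays differed by more than the gap between the groups, and without the lower of them, replicate 2, the difference was 0.81.

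Of 18 tested collagen genes, of 21 measured, 17 were higher and 1 lower. Groups did not overlap for 10 higher members (55.6%, against 19% of all genes), and 6 had an unadjusted p under 0.05 in limma (33.3%, against 4.69%). The fibrillar collagen Col1a1, main strength-bearing collagen of the heart, was at 8.44 and 7.93 at day 19 and at 8.65 and 8.82 post-partum, a difference of 0.54 ± 0.19. Col3a1, its partner in fine fibres, was at 8.34 and 7.78 against 8.39 and 8.29, with a difference of 0.28 ± 0.19 and overlapping groups. Basement membrane collagens Col4a1 and Col4a2 differed by 0.50 ± 0.22 and 0.47 ± 0.19, Col5a1, which sets fibril diameter, by 0.40 ± 0.13, and Col6a3, of the beaded filaments around cells, by 0.60 ± 0.20. A dimmer probe set of Col5a1, not used for the gene, differed by -0.33. Col15a1, of the vascular basement membrane zone, was at 7.42 and 6.19 against 7.91 and 8.12. Diestrus and day 12 arrays were at 7.60 to 7.80, with both day 19 arrays below that range and both post-partum arrays above it. Day 19 replicate 2 lay farthest from it. The list's median was 0.38, with 0.60 without day 19 replicate 1 and 0.18 without day 19 replicate 2.

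Enzymes that process collagen followed the collagens. In that list 13 of 16 tested members were higher, and 9 of those had groups that did not overlap (56.2%, against 19% of all genes). Loxl1, a cross-linking oxidase, was at 8.65 and 8.33 against 8.99 and 8.98, P3h1, a prolyl hydroxylase, differed by 0.40 ± 0.13, and Bmp1, the protease that removes the C-terminal propeptide, by 0.43 ± 0.16. The median was 0.18, with 0.31 without day 19 replicate 1 and 0.13 without day 19 replicate 2. In those settings 12 members were higher and 4 lower, and 10 were higher and 6 lower.

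Among 38 matricellular and adhesive proteins tested, 26 were higher, and 12 of these had an unadjusted p under 0.05 in limma (31.6%, against 4.69%), with none of the lower members at that level. Tnxb, the tenascin of collagen fibrils, was at 7.77 and 7.56 against 8.49 and 8.27, a difference of 0.71 ± 0.16. The basement membrane laminin Lamb1 differed by 0.46 ± 0.14, the elastic fibre glycoprotein Fbln2 by 0.70 ± 0.23 and Sparc, a collagen-binding matricellular protein, by 0.45 ± 0.15. The list's median of 0.22 was 0.43 without day 19 replicate 1 and 0.06 without day 19 replicate 2. Its mean log2 level overlapped between the groups: 8.09 and 7.52 at day 19, then 7.94 and 8.12 post-partum. In diestrus it was 7.88 and 8.02. Of 14 proteoglycans tested, 10 were higher with a median of 0.34. They included Hspg2, perlecan of the basement membrane, at 9.64 and 9.73 against 10.33 and 10.14, Cspg4, of pericytes, at 6.34 and 6.56 against 7.18 and 6.96, and Bgn, biglycan, at 12.05 and 11.92 against 12.44 and 12.35. There was no overlap of groups for 8 higher members (57.1%, against 19% of all genes) and 1 lower, and the median was 0.46 without day 19 replicate 1 and 0.21 without day 19 replicate 2. Has2, which synthesises hyaluronan, was that 1 lower member: it was at 6.80 and 7.27 at day 19 and at 5.88 and 6.19 post-partum, a difference of -1.0 ± 0.20. Those post-partum values were below the 6.26 to 6.65 of diestrus and day 12. The mean log2 level of the proteoglycan list overlapped between the groups: 8.13 and 7.82 at day 19, then 8.18 and 8.11 post-partum. In diestrus it was 8.09 and 8.30.

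Of 25 matrix proteases and inhibitors tested, 17 were lower and 8 higher, with a median of -0.07. Without day 19 replicate 1, 13 were lower and 12 higher, and the median was -0.0086 without post-partum replicate 2 and -0.22 without post-partum replicate 4. Mmp19 was at 6.76 and 6.71 against 5.89 and 6.09, a difference of -0.74 ± 0.18. Groups of 7 lower members did not overlap (28%, against 14.3%). Fibroblast markers bear on how the matrix values are read: 9 of 15 were higher and 6 lower, their mean log2 level was 8.31 to 8.83 at day 19 and 8.54 to 8.94 post-partum, and the lowest was day 19 replicate 2. Their median difference was 0.10, with 0.28 without day 19 replicate 1 and -0.14 without day 19 replicate 2. The matrix genes among them with the smallest p were higher, Lum by 0.78 ± 0.34 and Mfap5 by 0.87 ± 0.37 beside Col1a1. The groups of Lum and Mfap5 were barely apart, with gaps of 0.059 and 0.0032. Without day 19 replicate 2 the differences of Lum and Mfap5 were 0.28 and 0.31. Pdgfra and Dcn differed by -0.09 ± 0.14 and 0.03 ± 0.14. The part of fibroblast number in the matrix differences was not tested.

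**Figure D3:**
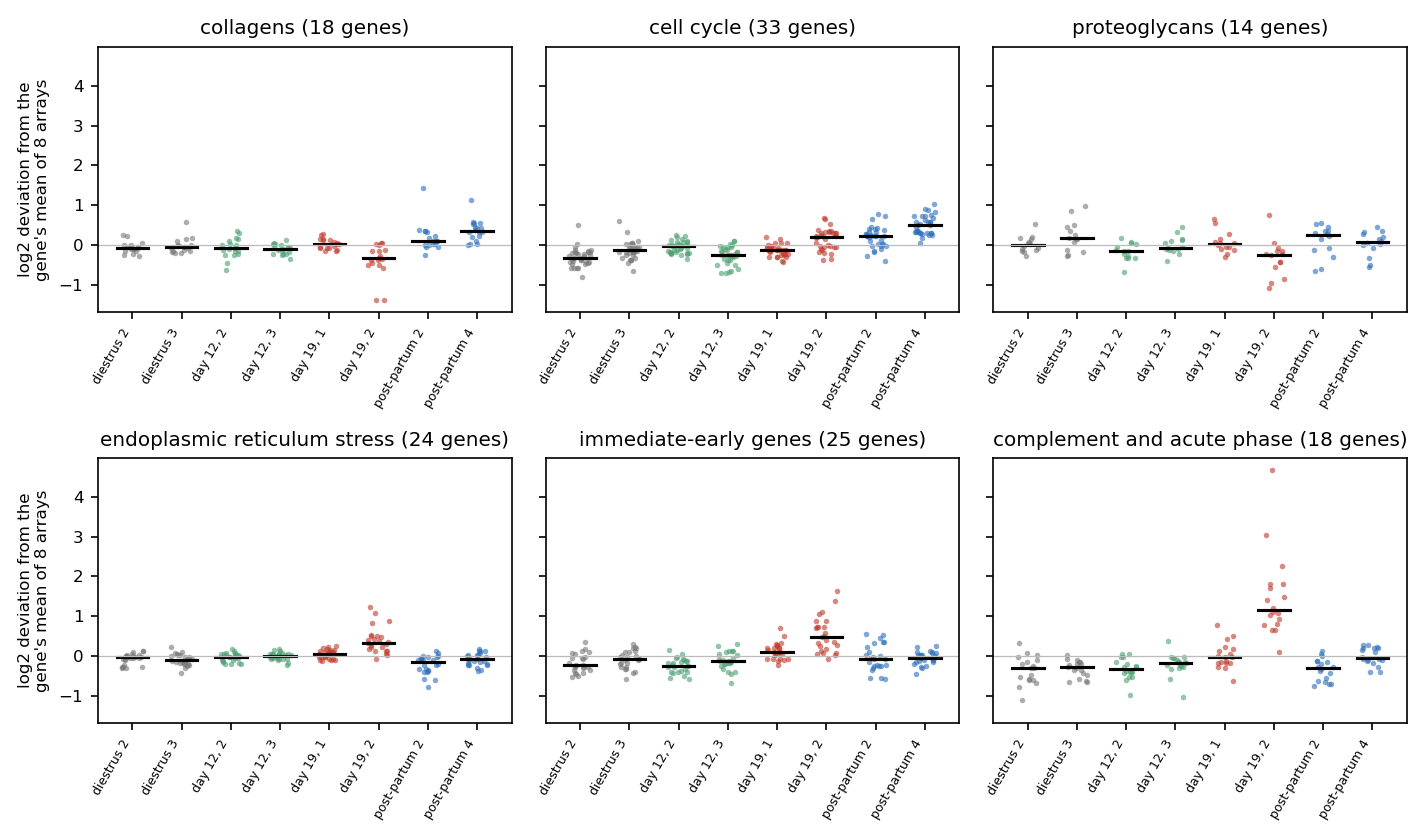
Each point is 1 tested gene, plotted as its log2 deviation from its own mean over the 8 arrays (vertical axis) on each array (horizontal axis); black bars are the list medians. Collagens and cell cycle genes sit highest on post-partum replicate 4, endoplasmic reticulum stress, immediate-early and complement genes sit highest on day 19 replicate 2, and collagens sit lowest on that same array.

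Cell division genes were higher post-partum. Cdk1, the kinase that drives entry into mitosis, was at 6.55 and 6.89 at day 19 and at 7.48 and 7.87 post-partum, above the 6.16 to 6.68 of diestrus and day 12. The difference was 0.95 ± 0.22, a 1.94-fold higher level (limma, unadjusted p = 0.00288, adjusted p = 0.589). Ccna2, a cyclin of S and G2 phase, was at 6.42 and 6.69 against 7.23 and 7.23, and Ube2c, which serves the anaphase-promoting complex, was at 6.50 and 6.98 against 7.54 and 7.38. Anln, a scaffold of the contractile ring, was at 5.80 and 5.71 against 6.37 and 6.49. All 6 genes of the replication helicase, Mcm2 to Mcm7, had both post-partum values above both day 19 values, as 19% of all genes did, and their differences had a median of 0.46. For all of these genes the higher post-partum array was replicate 4 or the pair was level, except Ube2c and Mcm4.

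Of 33 tested cell cycle genes, of 36 measured, 30 were higher and 3 lower. Of the higher ones 12 had an unadjusted p under 0.05 in limma (36.4%, against 4.69% of all genes) and 16 had groups that did not overlap (48.5%, against 19%). In S phase and in mitosis 12 of 13 and 18 of 20 members were higher, with medians of 0.42 and 0.31. The median of the list was 0.40; it was 0.25 without day 19 replicate 1, 0.49 without day 19 replicate 2 and 0.22 without post-partum replicate 4. Which cells of the ventricle carried these transcripts cannot be read from tissue RNA.

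Clock genes differed between the groups, in opposite directions by role. In the circadian loop, Arntl, Clock and Npas2 activate genes through E-boxes, the Per, Cry and Ciart repressors switch them off, and the output factors Dbp, Hlf and Tef act through D-boxes. In the left ventricle the activators and the output genes run in opposite phase over the day, and the labels do not give the hour at which tissue was taken. Dbp was at 8.35 and 7.67 at day 19 and at 9.24 and 9.36 post-partum, a difference of 1.29 ± 0.53. Ciart was at 5.85 and 6.08 against 7.12 and 7.31, Per3 at 6.55 and 6.30 against 7.50 and 7.17, and Hlf at 7.04 and 6.48 against 7.89 and 7.51. The nuclear receptor Nr1d1, which represses Arntl, was at 9.22 and 8.41 against 9.75 and 9.52, and Usp2, a clock-driven deubiquitinase, at 8.96 and 8.76 against 9.81 and 9.55. Arntl went the opposite way, from 7.91 and 7.36 to 6.36 and 6.67, and so did Npas2, from 7.46 and 7.47 to 6.64 and 6.49, and Clock, from 10.36 and 10.08 to 9.14 and 9.97.

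All 18 clock genes measured were tested. Groups did not overlap for 13 higher members (72.2%, against 19% of all genes) and for 4 lower ones (22.2%, against 14.3%), and 6 higher members had an unadjusted p under 0.05 in limma (33.3%, against 4.69%). By role, 8 of 9 repressors and 4 of 5 output genes were higher, with medians of 0.67 and 0.82, while 3 of 4 activators were lower with a median of -0.78. For Arntl, Dbp and Ciart the 2 diestrus arrays differed from each other by more than post-partum differed from day 19: Arntl was at 8.39 and 5.82 there, Dbp at 7.82 and 9.71, and Ciart at 5.57 and 7.82. For Usp2, Nr1d1 and Hlf they differed by less. The hour of collection and the reproductive state cannot be told apart in these values.

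**Figure D4:**
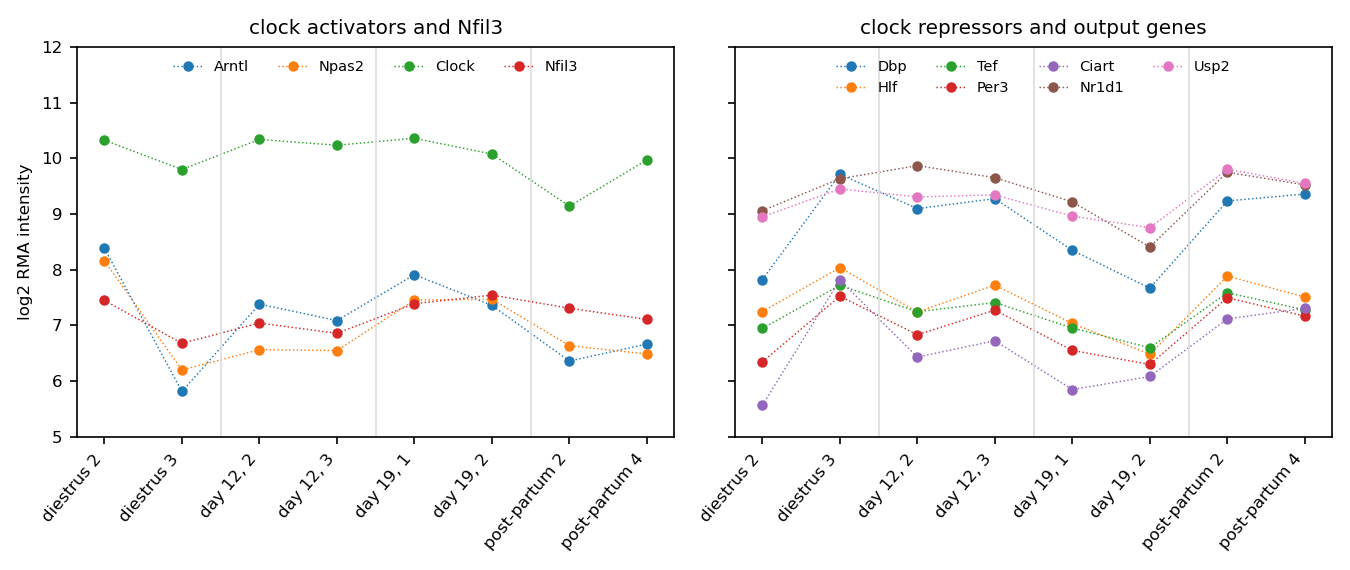
Log2 RMA intensity (vertical axis) of clock activators with Nfil3 (left) and of clock repressors and output genes (right) on the 8 arrays (horizontal axis); dotted lines join the values of a gene and vertical lines separate the groups. Arntl and Npas2 are lower, and the 7 genes on the right higher, on both post-partum arrays than on both day 19 arrays, and the 2 diestrus arrays lie far apart.

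The promoters of 2 genes with clock motifs are printed because Per3 and Ciart were among the clock genes with the largest differences and hold several matches. They were picked after the values and matches were seen. Sequences are the 250 bases before the transcript start from RefSeq (GRCm38.p6), on the gene's strand; capitals mark the D-box letters TTATGTAA in Per3 and the E-box letters CACGTG in Ciart, both strands searched. Per3 lies at chr4:151044666-151044915 (minus strand) and Ciart at chr3:95882229-95882478 (minus strand).
Per3: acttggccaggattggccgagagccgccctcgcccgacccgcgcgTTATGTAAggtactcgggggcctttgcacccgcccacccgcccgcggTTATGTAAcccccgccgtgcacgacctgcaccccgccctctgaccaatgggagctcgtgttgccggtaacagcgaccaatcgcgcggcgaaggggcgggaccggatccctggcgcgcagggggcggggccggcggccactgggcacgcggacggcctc
Ciart: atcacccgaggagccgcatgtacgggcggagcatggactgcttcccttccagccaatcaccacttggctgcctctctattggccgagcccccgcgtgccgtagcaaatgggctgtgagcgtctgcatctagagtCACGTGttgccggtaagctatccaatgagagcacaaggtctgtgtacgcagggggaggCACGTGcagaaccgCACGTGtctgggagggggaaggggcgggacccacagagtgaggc
Of the 18 clock genes, 17 had a promoter in the table, with 22 starts. The E-box letters were in 6 of those 22 windows, belonging to Bhlhe41, Ciart, Cry1, Per1 and Tef, against 6.02% of 32851 mouse promoters of that length. The D-box letters were in 1, that of Per3, against 0.819% of all. A match is a description of the letters and not evidence of binding.

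Chaperones of the endoplasmic reticulum were lower post-partum. They fold secreted and membrane proteins and are induced together through ER stress elements when unfolded protein accumulates. Hsp90b1, the reticulum's HSP90, was at 10.88 and 11.14 at day 19 and at 10.39 and 10.42 post-partum. Diestrus and day 12 arrays were between 10.80 and 10.93, so the post-partum arrays were the lowest of the series. The difference was -0.61 ± 0.14, a 1.52-fold lower level (limma, unadjusted p = 0.00247, adjusted p = 0.589). Hyou1, a nucleotide exchange factor for the reticulum's HSP70, was at 8.24 and 8.56 against 7.73 and 7.95, and Hspa5, that HSP70 itself, at 9.39 and 9.64 against 9.16 and 9.06. The disulfide isomerase Pdia6 was at 8.35 and 8.50 against 8.10 and 7.96, and the cochaperones Dnajb11 and Sdf2l1 differed by -0.43 ± 0.13 and -1.05 ± 0.34.

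The promoters of 3 of these chaperones show the element they share. They are printed, picked after the values and matches were seen, as the 250 bases before the start from RefSeq (GRCm38.p6) on the gene's strand, with the ER stress element in capitals: the letters CCAAT and CCACG with any 9 bases between them, or the reverse complement, both strands searched. Hspa5 lies at chr2:34771840-34772089 (plus strand), Hsp90b1 at chr10:86705445-86705694 (minus strand) and Pdia6 at chr12:17266339-17266588 (plus strand).
Hspa5: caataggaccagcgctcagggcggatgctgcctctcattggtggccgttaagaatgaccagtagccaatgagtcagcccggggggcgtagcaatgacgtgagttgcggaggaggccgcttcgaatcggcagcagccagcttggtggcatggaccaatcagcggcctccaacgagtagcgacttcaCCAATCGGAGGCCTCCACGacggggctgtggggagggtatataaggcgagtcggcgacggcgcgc
Hsp90b1: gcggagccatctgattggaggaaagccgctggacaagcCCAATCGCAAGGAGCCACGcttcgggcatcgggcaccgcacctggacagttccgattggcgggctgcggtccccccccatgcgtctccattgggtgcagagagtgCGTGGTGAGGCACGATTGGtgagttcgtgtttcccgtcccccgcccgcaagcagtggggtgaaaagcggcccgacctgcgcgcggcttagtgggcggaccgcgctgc
Pdia6: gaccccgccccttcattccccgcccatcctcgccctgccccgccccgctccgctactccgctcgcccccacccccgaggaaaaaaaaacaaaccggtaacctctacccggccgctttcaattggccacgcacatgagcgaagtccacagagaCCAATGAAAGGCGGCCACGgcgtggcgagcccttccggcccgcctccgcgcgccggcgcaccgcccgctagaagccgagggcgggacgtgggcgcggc
Of 24 genes in the list, 21 had a promoter in the table. The element was in 8 of them, those of Calr, Canx, Creld2, Dnajc3, Hsp90b1, Hspa5, Pdia6 and Syvn1, against 0.113% of 32851 promoters. The genes that hold it were not uniform in expression: Creld2 differed by -0.48 ± 0.16, and Syvn1 by 0.01.

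All 24 genes of the list were tested, and 22 were lower. Of these, 11 had an unadjusted p under 0.05 in limma (45.8%, against 3.56% of all genes) and 16 had groups that did not overlap (66.7%, against 14.3%). The 13 chaperones were all lower, 12 of them without overlap, with a median of -0.40; among 11 sensors and effectors 9 were lower, with a median of -0.25. Asns, an amino acid synthase of the stress response, was at 6.97 and 8.13 against 6.54 and 6.94, and the stress factor Ddit3 at 7.07 and 7.95 against 7.10 and 6.78, both with their high value on day 19 replicate 2. The list's median of -0.33 was -0.48 without day 19 replicate 1 and -0.21 without day 19 replicate 2. The counts of lower members were 23 and 21 in those settings.

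Immediate-early genes, transcription factors that are switched on quickly by a stimulus, were also lower. Atf3 was at 7.56 and 8.67 at day 19 and at 6.49 and 6.90 post-partum, where the other 4 arrays were at 6.49 to 6.88. The difference was -1.42 ± 0.33 (limma, unadjusted p = 0.00307, adjusted p = 0.589). Fos, a subunit of the AP-1 dimer, was at 5.90 and 5.90 against 5.13 and 4.90, and the antiproliferative gene Btg2 at 8.31 and 9.08 against 7.78 and 7.93. Fos passed the brightness filter only through its day 19 level, and it is included in the counts that follow. Of the 25 genes tested, 21 were lower, 8 of them with an unadjusted p under 0.05 in limma (32%, against 3.56%) and 13 without overlap (52%, against 14.3%). All 7 AP-1 genes were lower, with a median of -0.39. The list's median of -0.34 was -0.48 without day 19 replicate 1 and -0.12 without day 19 replicate 2.

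The low medians of most immune lists came mainly through 1 array. In the interferon response list all 24 tested members were lower post-partum, with a median of -1.06, yet only 2 had groups that did not overlap (8.33%, against 14.3% of all genes). Igtp, an interferon-inducible GTPase, was at 7.76 on day 19 replicate 1, 12.18 on replicate 2, and 7.17 and 7.83 post-partum. Without day 19 replicate 2 the median was 0.04, and without replicate 1 it was -2.07. Macrophage markers had 18 of 20 lower, 2 of them with groups apart (10%), and a median of -0.61 that was 0.05 without day 19 replicate 2. In the chemokine and cytokine list 21 of 24 were lower, and the median of -0.69 was -0.01 without that array. All 18 tested complement and acute phase members were lower, and their median of -0.77 was also -0.01 without it. In these 2 lists more lower members had groups apart than in the background: 8 (33.3%) and 7 (38.9%), against 14.3%. Isg15 of the interferon list and Il1b of the chemokine list, both with groups apart, passed the brightness filter only through their day 19 levels.

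Some immune and acute phase genes were high on both day 19 arrays. Cxcl13, a chemokine that attracts B cells, was at 7.96 and 10.44 at day 19 and at 5.73 and 5.62 post-partum, and at 5.75 to 6.05 on the other 4 arrays. The difference was -3.53 ± 0.65, an 11.5-fold lower level (limma, unadjusted p = 0.00069, adjusted p = 0.589), and -2.29 without day 19 replicate 2. Haptoglobin, Hp, a haemoglobin scavenger, was at 5.86 and 6.44 against 5.02 and 5.08, with a difference of -1.10 ± 0.20. Serpina3n was at 9.25 and 10.28 against 8.11 and 8.63, and Cp, the copper carrier ceruloplasmin, at 9.88 and 10.31 against 8.99 and 9.55. Without day 19 replicate 2 the differences were -0.81 for Hp, -0.88 for Serpina3n and -0.61 for Cp.

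Antigen presentation genes were low on the post-partum arrays and high on day 19 replicate 2. Of that list 5 of 6 tested members had groups that did not overlap, all lower (83.3%, against 14.3% of all genes): H2-Ab1 was at 9.13 and 12.15 against 8.25 and 8.80, and H2-Aa at 8.28 and 10.85 against 7.81 and 8.03. Itgax, another of the members with groups apart, passed the brightness filter only through its day 19 level. The list median was -1.69, and -0.38 without day 19 replicate 2. Diestrus and day 12 values of H2-Ab1, 9.38 to 9.86, were above both post-partum arrays and above day 19 replicate 1.

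The platelet, atrial and mesothelium lists had their highest mean levels on day 19 replicate 1. Of 7 platelet genes tested, 6 were lower post-partum with a median of -1.09, and the median was 0.39 without that array; Gp9, a platelet adhesion receptor subunit, was at 10.65 and 7.23 against 7.68 and 7.71. Selp, stored in platelets and endothelium, was at 7.05 and 7.25 against 5.45 and 5.83, and Plek at 8.59 and 8.85 against 6.54 and 7.16, so these 2 were high on both day 19 arrays. Of 11 atrial genes, 8 were lower with a median of -0.50, and 0.10 without replicate 1. Atrial light chain Myl7 was at 11.76 and 4.56 against 4.63 and 4.81, sarcolipin Sln at 10.62 and 4.52 against 4.30 and 3.75, and Bmp10 at 8.06 and 5.12 against 4.53 and 4.49. All 10 mesothelial genes tested were lower with a median of -0.60, and -0.10 without replicate 1. Bmp10 and the mesothelial gene Krt18 passed the brightness filter only through their day 19 levels. The part of atrial, mesothelial and platelet RNA in the other differences was not tested.

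**Figure D5:**
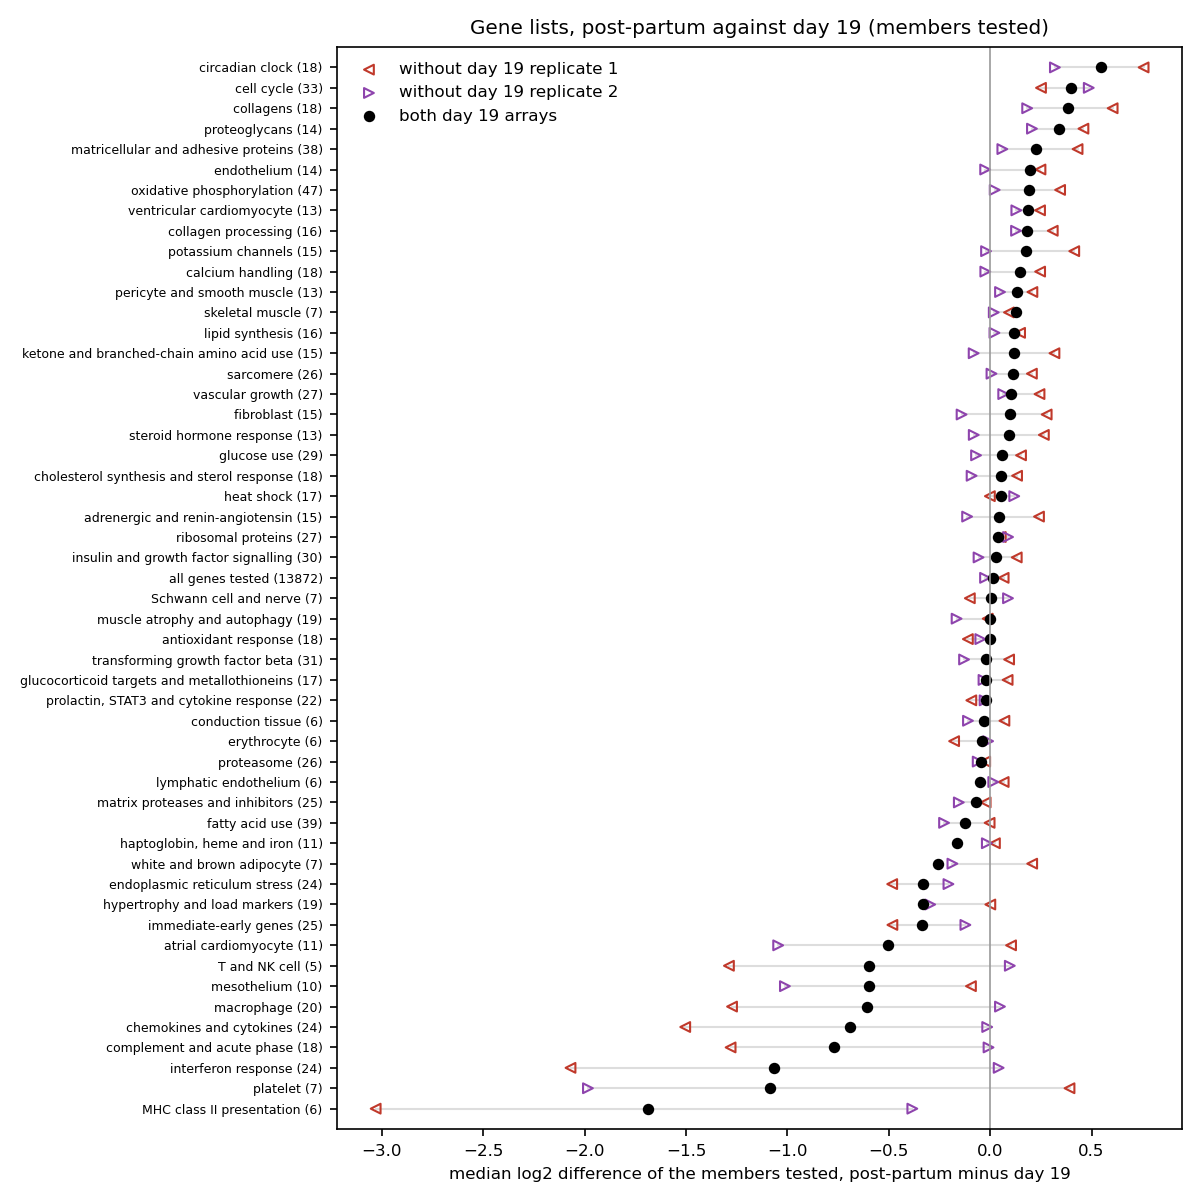
Median log2 difference, post-partum minus day 19 (horizontal axis), of the tested members of each gene list with 5 or more of them (members tested in brackets) and of all genes tested; black points use both day 19 arrays, open triangles leave out 1 of them. Clock, cell cycle, collagen and proteoglycan lists lie above 0 and the endoplasmic reticulum and immediate-early lists below 0 in all 3 settings, while interferon, macrophage, platelet and atrial lists cross 0.

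Genes of electrical activity and calcium handling were mostly higher post-partum by small amounts, a lean that depended on day 19 replicate 2. Kcnh2, the rapid delayed rectifier potassium channel, was at 7.86 and 7.59 at day 19 and at 8.30 and 8.27 post-partum, against 8.17 to 8.22 on the other 4 arrays. The difference was 0.56 ± 0.14, and here day 19 was the group that stood apart. Of 15 potassium channel genes 13 were higher; groups did not overlap for 4 (26.7%, against 19%), and the median of 0.18 was -0.02 without day 19 replicate 2. In the calcium handling list 13 of 18 were higher with a median of 0.15, and groups did not overlap for 7 of these (38.9%, against 19%). Without day 19 replicate 2 only 8 were higher, 10 were lower, and the median was -0.024. Hrc, the histidine-rich calcium buffer of the sarcoplasmic reticulum, was at 9.43 and 8.95 against 10.14 and 9.62, and Jph2, which holds that reticulum to the surface tubules, at 8.79 and 8.23 against 9.15 and 8.84. The calcium pump Atp2a2 and its inhibitor Pln differed by 0.05 ± 0.13 and 0.12 ± 0.12.

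Respiratory chain genes were higher by small amounts: 38 of 47 tested, with a median of 0.19. Groups did not overlap for 15 higher members (31.9%, against 19%), and 4 had an unadjusted p under 0.05 in limma (8.51%, against 4.69%). Ndufb10 of complex I was at 7.80 and 7.60 against 8.50 and 8.03. Without day 19 replicate 2 the median was 0.02. Of the 13 ventricular cardiomyocyte markers 12 were higher with a median of 0.19, 10 of them without overlap (76.9%, against 19%), which includes the transcription factors Nkx2-5 and Irx4, at differences of 0.36 ± 0.14 and 0.45 ± 0.19.

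Muscle breakdown genes were mixed. Fbxo32, the ubiquitin ligase atrogin-1, was at 8.40 and 8.59 at day 19 and at 9.30 and 9.09 post-partum, a difference of 0.70 ± 0.17, while the diestrus and day 12 arrays lay at 8.71 to 9.08. Trim63, another muscle ubiquitin ligase, was at 9.24 and 8.80 against 8.52 and 9.13. The mitophagy receptor Bnip3, a target of hypoxia, was at 9.07 and 9.10 against 8.71 and 8.64. The atrophy and autophagy list had 9 members higher and 10 lower.

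Genes of blood vessel growth were split in direction by size alone, while most members with groups apart were higher. Of 27 tested 15 were higher and 12 lower, close to the split of all genes, and the median of 0.10 was 0.012 without post-partum replicate 4. Without overlap of the groups, 11 members were higher (40.7%, against 19%) and 1 was lower (3.7%, against 14.3%). At an unadjusted p under 0.05 in limma, 3 were higher (11.1%, against 4.69%) and 0 lower (0%, against 3.56%). By size alone 3 of 4 angiopoietin genes were lower, all with overlapping groups. Aplnr, the apelin receptor of sprouting endothelium, was at 8.03 and 6.58 against 8.32 and 9.05, and the hypoxia factor Epas1 at 9.91 and 9.62 against 10.65 and 10.12. The VEGF receptors Flt1 and Kdr differed by 0.26 ± 0.14 and 0.31 ± 0.17, and Vegfa itself by -0.03 ± 0.18.

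Hormone response genes gave no common direction. In the list of prolactin, STAT3 and cytokine response genes 10 of 22 were higher and 12 lower. Tnfrsf12a was at 9.93 and 9.58 at day 19 and at 8.27 and 8.77 post-partum, against 8.05 to 8.58 on the other 4 arrays; the difference was -1.24 ± 0.24. Cish and Socs2, feedback inhibitors induced by STAT5 downstream of prolactin and growth hormone, differed by 0.38 ± 0.17 and 0.20 ± 0.14, and Stat3, which protects the maternal heart, by -0.02 ± 0.18. Dimmer probe sets, not used for these genes, differed by 0.67 for Cish and -0.18 for Socs2. Of 13 steroid response genes 8 were higher. Gper1, a membrane oestrogen receptor, was at 5.26 and 5.01 against 5.64 and 5.71, a difference of 0.54 ± 0.14, and diestrus and day 12 arrays were at 5.52 to 5.81. The oestrogen receptor Esr1 was at 5.79 and 5.73 against 5.15 and 5.54. The progesterone receptor Pgr was too dim on all groups to be tested, and the prolactin receptor was not analysed here.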

How the data were processed

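Gene expression was measured with whole-transcript arrays in 8 left ventricle samples, 2 in each of 4 groups. The deposited values are log2 intensities from the authors. RMA and Affymetrix Expression Console are named per the submitters' processing notes. Their versions and settings, the array library and the build: not given in the sources used here. The table holds 34365 probe sets; 23521 had 1 gene symbol, 1814 several and 9030 were unnamed here. Of several probe sets for a gene 1 was used, and 22180 genes resulted. A gene was tested where its highest group mean reached the median of all values (5.19). Depth has no meaning for arrays: their number limits precision, and the median standard error was 0.17. The difference was fitted with limma 3.58.1 in R 4.3.3, with 1 mean per group, moderated variances over 8 arrays and Benjamini-Hochberg adjustment over 13872 genes; the code was tested on simulated data.

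Genes named as largest were up to 15 per direction past the adjusted threshold of 0.05, filled by size from genes with unadjusted p under 0.01 and groups apart, without predicted and numbered small RNA genes. Added were fixed genes and, for every list, its 3 or fewer members of lowest p. Other genes were named after their values were seen. The comparison and the 55 gene lists were chosen with earlier results of these data known. Alternatives were other normalizations, filters, variance models and probe set rules, and each array left out. Member counts without either day 19 array were added after seeing the data. Promoters are from RefSeq (GRCm38.p6), which was used for names and sequences only.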

Additional observations from a re-analysis of the deposited data

How the results depend on the processing

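With 2 arrays per group and 1 day 19 array standing apart in immune genes and the other in atrial and platelet genes, few differences can be called, and the array count limits precision throughout. At an adjusted p under 0.05 in limma, 1 gene, Scd4, was lower with a variance trend and robust fit (adjusted p 0.0405), with a stricter filter (0.0426) and after quantile normalization again (0.0465); over all alternatives its adjusted p ran from 0.00198 (without day 19 replicate 1) to 0.962 (without post-partum replicate 2). Leaving out single arrays gave 0 to 310 higher and 0 to 562 lower genes; the largest counts came without day 19 replicate 1, and 1 higher (Snora30) and 3 lower (Creg1, H2-Q10, Uprt) came without post-partum replicate 4. At an unadjusted p under 0.05 in limma, 651 higher and 494 lower genes became 232 and 194 with only the contrast's 4 arrays. The counts were 268 and 294 with array weights, and 294 to 1989 higher and 219 to 1343 lower without single arrays. The stricter filter gave 450 higher and 281 lower. It tested 7862 genes instead of 13872, so its lower counts alone do not show a change. After quantile normalization again the sign turned for Stat3 (0.024), Vegfa (0.0047), Atp2a2 (-0.043), Dcn (-0.038) and Pln (-0.019). Leaving out single arrays turned the sign of the medians of the hypertrophy (-0.33 to 0.000506), potassium channel (-0.021 to 0.41), interferon (-2.07 to 0.042), macrophage (-1.27 to 0.048), platelet (-1.98 to 0.39), atrial (-1.05 to 0.10), calcium handling (-0.024 to 0.25) and fibroblast (-0.14 to 0.31) lists, among others. It also turned Gp9 (-2.95 to 0.47), Myl7 (-7.04 to 0.16), Syvn1 (-0.13 to 0.16), Trim63 (-0.50 to 0.11), Acta1 (-0.074 to 1.36), Stat3 (-0.27 to 0.24), Atp2a2 (-0.054 to 0.16), Dcn (-0.047 to 0.11), Scd1 (-0.38 to 1.52) and Pdgfra (-0.23 to 0.056). The cause of these shifts was not tested. No paired analysis was possible because the 2 groups share only replicate number 2.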

Other observations

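Small non-coding RNA genes were at higher levels post-partum, a group picked after its values were seen. Of 51 small nucleolar RNA genes tested, which guide the chemical modification of ribosomal RNA, 41 were higher and 10 lower, with a median difference of 0.29 in log2 units. Groups did not overlap for 21 higher and 3 lower members (19% and 14.3% of all genes did so), or 41.2% and 5.88% of the group. The mean log2 level of these genes was 7.05 and 6.97 on the day 19 arrays and 7.56 and 7.28 post-partum, against 7.26 and 7.63 in diestrus and 6.58 and 6.94 at day 12. The post-partum arrays lay between the 2 diestrus arrays. The Y RNA gene Rny1 was at 6.33 and 5.84 at day 19 and at 8.48 and 7.73 post-partum, and Rny3 at 7.39 and 7.83 against 9.03 and 8.69. RNA quality and recovery of short RNA were not tested.

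Histone genes as a group did not follow the cell cycle list: 14 of 22 tested were higher and 8 lower, with a median of 0.14. H1f5, a linker histone, was at 3.54 and 4.35 against 5.49 and 5.56. The transferrin receptor Tfrc, which takes up iron, was at 8.96 and 7.68 against 9.49 and 9.25, a difference of 1.05 ± 0.38.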
